A study of Rattus norvegicus with 6 samples.

Results

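Tarbp2 and 6 other genes of the small RNA silencing machinery (Dicer1, Drosha, Dgcr8, Prkra, Ago1 and Ago2) were followed in H9c2 cells, a myoblast line from embryonic rat heart. They are 7 of the 24360 gene rows, found by symbol, and they hold 24 of the 44501 transcript rows. Tarbp2 was selected on its transcript counts in this same contrast, as a gene with a new transcript model that has counts in every treated sample and in no control. Its differences between the groups are therefore given as a description, with no test. The other 6 genes were added for their role, with earlier results of these data known.

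RNA was measured in 3 control samples (Ctrl, treatment label NC) and 3 samples given ginsenoside Rb2 (Rb2), a saponin of ginseng, all of wild-type H9c2. The shared protocol text describes Rb2 for 48 h, then 4 to 6 h without oxygen and glucose, and 12 h of reoxygenation. Whether the Ctrl samples were deprived is not stated there. The labels do not say that replicates are separate cultures. Each p-value thus reflects the spread among the samples as deposited, and that spread may be technical.

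MicroRNAs are made in 2 cuts. In the nucleus the RNase III enzyme Drosha, held by its RNA-binding partner Dgcr8 in the Microprocessor complex, releases a hairpin from a primary transcript. In the cytoplasm Dicer1 trims the hairpin to a duplex, with the double-stranded RNA-binding proteins TRBP (the product of Tarbp2) or PACT (the product of Prkra) at its side. A strand of the duplex is then loaded into an Argonaute protein, of which Ago2 can cut its target. TRBP and PACT are paralogs that also act on PKR, the kinase encoded by Eif2ak2: TRBP restrains it and PACT activates it.

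One of the 7 genes is itself a source of such a hairpin. RefSeq places Mir1306 inside Dgcr8, at chr11:96213960-96214032 of GRCr8, plus strand, and its sequence is shown because it is a substrate of the machinery that lies within a gene of that machinery. In the hairpin, capitals mark both mature arms; in the mature microRNAs, capitals mark the seed (bases 2 to 8). The arms carry different seeds. The libraries were made with an mRNA kit, so mature microRNAs were not measured.
Mir1306 hairpin: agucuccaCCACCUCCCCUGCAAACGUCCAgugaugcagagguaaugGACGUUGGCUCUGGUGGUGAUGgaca
rno-miR-1306-5p: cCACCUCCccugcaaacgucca
rno-miR-1306-3p: gACGUUGGcucugguggugaug

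The smallest library held 5193077 counts (Rb2 replicate 3) and the largest 8793390 (Ctrl replicate 1), so a count of 3, the most that a count of 0 allows, stood for 0.341 to 0.578 CPM. CPM (a count relative to the library total) is scaled here between libraries by TMM. The label calls the cells embryonic cardiomyocytes. Of 10 cardiac markers matched, Tnnc1 led (432 CPM for Ctrl, 354 CPM for Rb2). Tnnt2 had 1817 counts over all 6 samples, Mybpc3 81, Myh6 47 and Nppb 21, and Myh7, Actn2, Tnni3, Myl7 and Myl2 had between 1 and 3. The cardiac list summed to 440 to 560 CPM in Ctrl and 393 to 422 CPM in Rb2. Of the 8 skeletal myoblast genes matched, Cdh15 had 1652 counts over all 6 samples, Myod1 508, Des 450 and Myog 356. Tnnt3 had 36, Chrna1 32, Tnnt1 21 and Myf6 0. The endothelial genes Tek and Vwf had 1 and 2. Of the leukocyte genes Ptprc had 0 counts, Cd68 10, Csf1r 15 and Cd14 956, and of the epithelial genes Epcam, Krt18 and Cdh1 had 0 and Krt8 1339. Few marker genes passed the filter: 3 cardiac, 4 myoblast, 0 endothelial, 1 leukocyte and 1 epithelial. None of them was called, against 2.70% of all genes tested, so this says little.

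The partners of Dicer had the highest values of the members, both in CPM and per kilobase. A low count alone does not show that a gene's RNA was low, as set out below for the Argonaute genes. Per kilobase of the deposited gene length, the mean level over the 6 samples was 16.8 CPM per kilobase for Prkra and 14.2 for Tarbp2. It was 1.30 for Drosha, 0.811 for Dgcr8, 0.270 for Dicer1, 0.163 for Ago2 and 0.0104 for Ago1. Prkra was above Tarbp2 in 5 of 6 samples, and their ranges overlapped (8.82 to 21.0 and 11.9 to 16.1 CPM per kilobase). Drosha was above Dgcr8 in 6 of 6 samples with ranges that overlapped, and Dicer1 above Ago2 in 4 of 6. The other neighbours in this order did not overlap: Tarbp2 and Drosha, Dgcr8 and Dicer1, and Ago2 and Ago1. The deposited length of the Tarbp2 gene, 2447 bases, is longer than any of its transcript rows, the longest of which has 1676 bases, so its level per kilobase depends on the length used. With the mean transcript length in each sample, weighted by count (an alternative chosen after seeing the data), Tarbp2 was at 21.2 to 28.4 CPM per kilobase and above Prkra in 6 of 6 samples. The order of Tarbp2 and Prkra therefore turns with the length, while both stay above the other 5 genes.

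**Figure D1:**
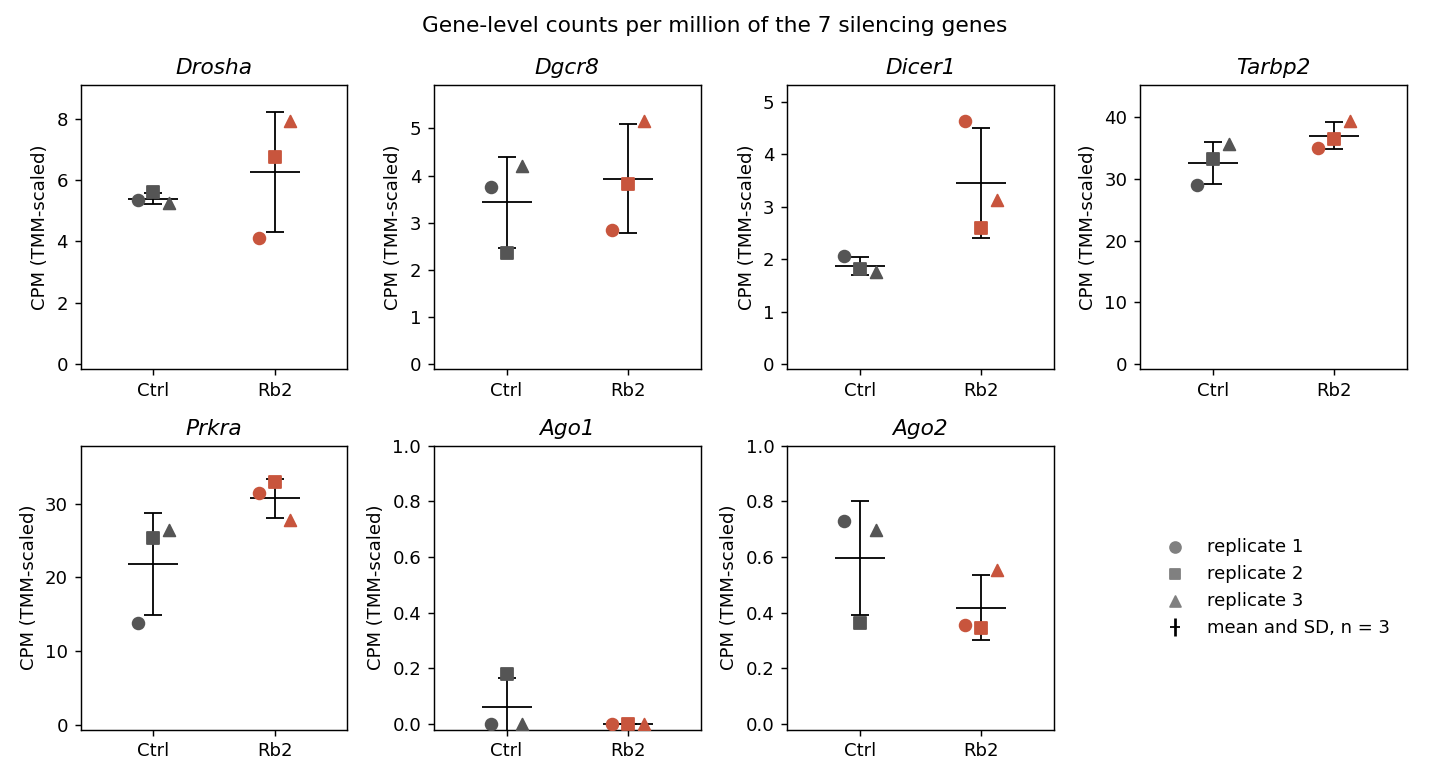
Gene-level CPM (vertical axes, linear, scaled by TMM) of the 7 genes in Ctrl and Rb2; each point is 1 sample, with its replicate number as the shape, and the horizontal line and whiskers are the mean and SD of 3 samples. Dicer1 and Prkra have groups that do not overlap, while Ago1 and Ago2 stay under 1 CPM in every sample.

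At the gene level none of the 4 members tested besides Tarbp2 was called, that is, had an adjusted p under 0.05 in the fit over all genes. The background was 312 called of 11551 genes (2.70%), and 2308 genes had an unadjusted p under 0.05. Of the 7 members, 5 passed the filter on low counts. Ago1 and Ago2 did not, and they are described by their counts alone. DESeq2, which called 409 genes, did not call Drosha, Dgcr8 or Prkra and gave Dicer1 no adjusted p. The Ctrl and Rb2 values of Dicer1 and of Prkra were fully separate. Among all genes tested, 27.2% had such separate groups.

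In the nucleus, Drosha was at 5.34, 5.603 and 5.24 CPM in the Ctrl samples and at 4.09, 6.76 and 7.91 CPM in the Rb2 samples. The Ctrl samples lay close together and the Rb2 samples fell on both sides of them. Drosha had a log2 fold change of 0.21 (Rb2 over Ctrl, 95% interval -0.385 to 0.809, edgeR adjusted p = 0.703). Its partner Dgcr8 was at 3.76, 2.35 and 4.19 CPM in the controls, against 2.85, 3.81 and 5.15 CPM with Rb2, and the groups overlapped. Its log2 fold change was 0.18 (95% interval -0.525 to 0.891, edgeR adjusted p = 0.792). These values rest on 210 counts of Drosha and 134 counts of Dgcr8 over all samples. The count of Dgcr8 per count of Drosha averaged 0.641 ± 0.198 for Ctrl against 0.637 ± 0.0669 for Rb2 (SD, n = 3 each).

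Dicer1, the cytoplasmic enzyme, had the largest difference among the members tested. It was at 2.06, 1.81 and 1.75 CPM in the controls, against 4.63, 2.60 and 3.13 CPM with Rb2, so each Rb2 sample was above each Ctrl sample. The log2 fold change of Dicer1 was 0.86 (SE 0.31, 95% interval 0.16 to 1.56, unadjusted p = 0.021 and adjusted p = 0.164 with edgeR). It rests on 37 counts in Ctrl and 58 in Rb2, of which Rb2 replicate 1 gave 26. Dicer1 passed the filter through Rb2: 3 Rb2 samples but 1 Ctrl sample reached the 1.76 CPM it asks of 3 samples. Without Rb2 replicate 1 the log2 fold change was 0.595 (edgeR adjusted p = 0.431), and over the alternatives that gave one its adjusted p ran from 0.105 to 0.431. With 9858 bases Dicer1 is the longest member, and with an offset for gene length in each library its log2 fold change was 0.70 (edgeR adjusted p = 0.230).

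Prkra, which encodes PACT, was at 13.8, 25.3 and 26.4 CPM in the controls, against 31.5, 32.9 and 27.8 CPM with Rb2. Ctrl replicate 1 stood well below the other 2 Ctrl samples, and the highest Ctrl value was just under the lowest Rb2 value. The log2 fold change of Prkra was 0.505 (SE 0.233, 95% interval -0.017 to 1.027, edgeR adjusted p = 0.264). Without Ctrl replicate 1 it was 0.27 (edgeR adjusted p = 0.236). RefSeq places a noncoding RNA gene across part of Prkra, and whether counting used strand is not given in the sources used here; the same holds for Ago1, Ago2 and, with a pseudogene, Dgcr8.

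The Tarbp2 gene count differed little between the groups. Tarbp2 was at 29.0, 33.3 and 35.6 CPM in the controls, against 35.1, 36.6 and 39.4 CPM with Rb2, and the groups overlapped. The log2 fold change was 0.18 with an SE of 0.14, and over the alternatives it ran from 0.11 to 0.30. The count of Tarbp2 per count of Prkra, the 2 partners of Dicer, was 2.10, 1.31 and 1.35 in Ctrl and 1.11, 1.11 and 1.42 in Rb2. Ctrl replicate 1, the sample with the lowest Prkra count, was the highest, and the other samples overlapped. The 3 genes with the closest pattern to Tarbp2 over the 6 samples, among 6616 genes with a symbol and at least 5 CPM, were Gars, Scamp4 and Vcp. Their root mean square difference from Tarbp2 in centred log2 CPM was 0.033, 0.034 and 0.039, against a median of 0.237 over all genes compared.

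Below the gene level Tarbp2 was divided among more transcripts than any of the other 6 genes. It holds 17 transcript rows, the annotated Tarbp2-201 and 16 new models with identifiers that begin with ONT, of which 16 rows in all had a count in these samples and 6 had one in every sample. Dgcr8 has 2 transcript rows and each of the other 5 genes 1. For each of the 7 genes and in every sample, the gene count equals the sum over its transcripts.

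The new Tarbp2 model ONT.16238.5 had no count in any Ctrl sample and 43, 48 and 44 counts in the Rb2 samples. It took 21.8%, 22.7% and 20.6% of the Tarbp2 count in Rb2 (exact 95% binomial intervals 16.3% to 28.3%, 17.3% to 29.0% and 15.4% to 26.6%). Across the 627 Tarbp2 counts of the Ctrl group, a count of 0 allows a share of up to 0.478%, and in Rb2 135 of 622 counts were assigned to it. Intervals and limits cover counting error only. This is the pattern that chose the gene. Among 16679 transcripts past the filter, 7 (0.0420%) had no Ctrl count and at least 10 counts in every Rb2 sample.

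The annotated Tarbp2-201 was lower in Rb2. It had 137, 111 and 113 counts in Ctrl and 72, 67 and 80 in Rb2. Scaled for depth, Tarbp2-201 went from 18.96 ± 1.75 to 13.1 ± 1.6 CPM and ONT.16238.5 from 0 to 8.06 ± 0.358 CPM (SD, n = 3). The share of Tarbp2-201 was 57.3%, 60.3% and 55.4% in Ctrl (exact 95% intervals 50.8% to 63.7%, 52.9% to 67.4% and 48.3% to 62.3%). In Rb2 the share of Tarbp2-201 was 36.5%, 31.8% and 37.4% (29.8% to 43.7%, 25.5% to 38.5% and 30.9% to 44.2%), and the groups did not overlap. The shares of a gene's transcripts add up to the whole, so the share of ONT.16238.5 in Rb2 leaves less for the others. These values are a description with no test, and the intervals cover counting error only. How many transcripts of all genes have shares this separate is not given here. Tarbp2-201 has 1469 bases and ONT.16238.5 has 1459, a difference of 10 bases.

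Added together, these 2 transcripts had shares of Tarbp2 that overlapped between the groups. Their summed share averaged 57.7% ± 2.49 for Ctrl against 56.9% ± 2.12 for Rb2 (SD, n = 3 each). Their summed level was 18.96 ± 1.75 CPM in Ctrl and 21.16 ± 1.6 CPM in Rb2. Their summed counts were 137, 111 and 113 in Ctrl and 115, 115 and 124 in Rb2. The mean length behind a Tarbp2 count, weighted by transcript, was 1381 bases (SD 11.7) for Ctrl against 1386 bases (SD 4.41) for Rb2, with n = 3 each. How the authors' counting divided reads between models this alike in length is not given in the sources used here, and its part in the split was not tested. Across all genes, 19 transcripts had 0 counts throughout one group and at least 10 in every sample of the other, 7 of them without counts in Ctrl and 12 in Rb2.

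**Figure D2:**
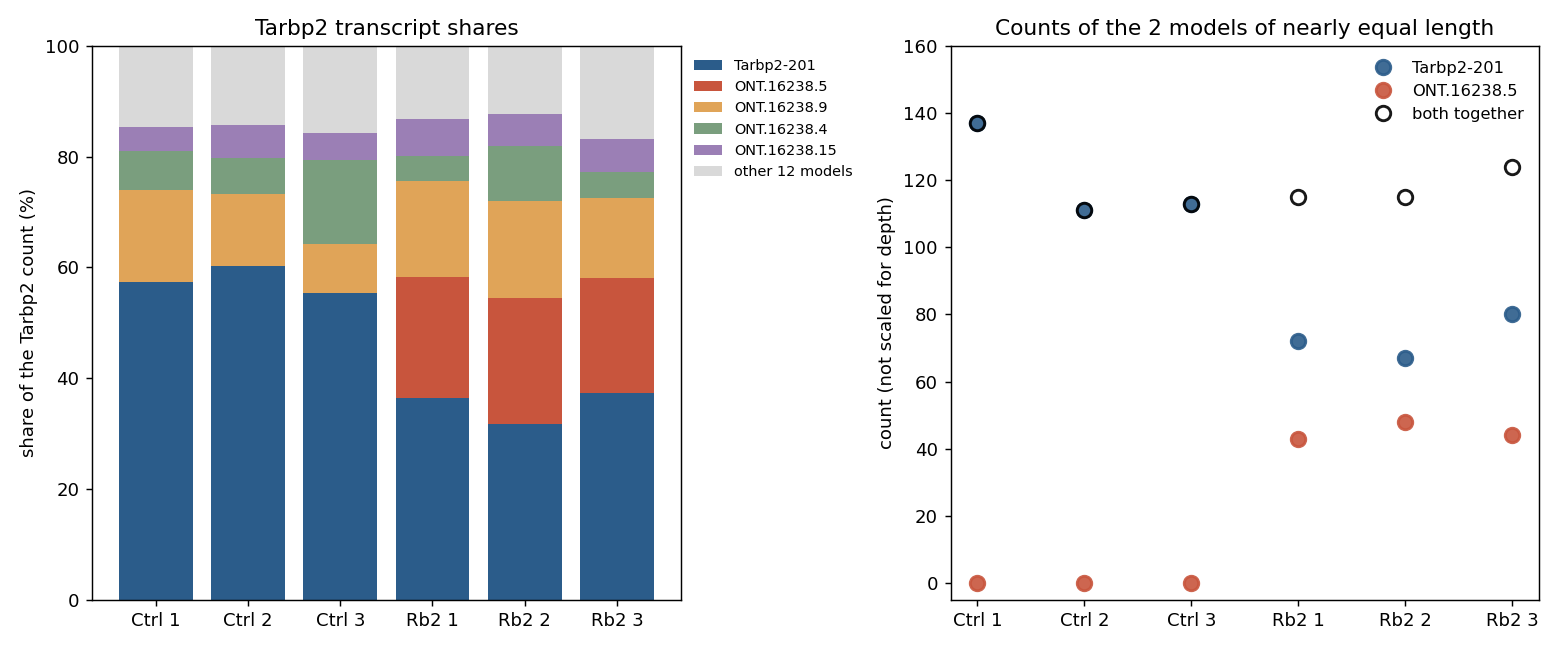
Left, share of the Tarbp2 count (percent, vertical axis) taken by each transcript in each of the 6 samples, with the 5 transcripts past the filter in colour and the other 12 models in grey. Right, counts, not scaled for depth, of Tarbp2-201, of ONT.16238.5 and of both together in each sample: ONT.16238.5 is at 0 in Ctrl and between 43 and 48 in Rb2, while both together range from 111 to 137 in Ctrl and from 115 to 124 in Rb2.

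The other 15 Tarbp2 models had shares whose groups overlapped in every case. The largest, ONT.16238.9 (1178 bases), took 12.9% ± 3.96 of the count in Ctrl and 16.4% ± 1.69 in Rb2 (SD, n = 3). ONT.16238.4 (1373 bases) took 9.61% ± 4.85 and 6.40% ± 3.08, with Ctrl replicate 3 the highest at 15.2%. ONT.16238.15, the longest model, took 5.02% ± 0.90 and 6.12% ± 0.46. The remaining 12 rows, ONT.16238.2, ONT.16238.3, ONT.16238.6, ONT.16238.7, ONT.16238.8, ONT.16238.11, ONT.16238.13, ONT.16238.14, ONT.16238.16, ONT.16238.17, ONT.16238.18 and ONT.16238.19, each had a mean share of at most 3.51% in Ctrl and 3.36% in Rb2. ONT.16238.2 had no count in any of the 6 samples. ONT.16238.8 had 7 counts in Ctrl replicate 3 and none in any other sample. Together the 15 other models held 42.3% ± 2.49 of Tarbp2 in Ctrl and 43.1% ± 2.12 in Rb2 (SD, n = 3).

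Nearly all of the Dgcr8 count lay on a new model. ONT.4380.1 (4304 bases) took 31 of 31, 11 of 13 and 23 of 24 counts in Ctrl and 16 of 16, 21 of 22 and 26 of 28 in Rb2. The annotated Dgcr8-201 (4538 bases) took the rest, between 0 and 2 counts a sample. The share of ONT.4380.1 averaged 93.5% ± 7.96 for Ctrl against 96.1% ± 3.62 for Rb2 (SD, n = 3). At the transcript level 4 rows of these 6 other genes were tested, Dicer1-201, Drosha-201, Prkra-201 and ONT.4380.1, and none was called by edgeR (adjusted p = 0.312, 0.786, 0.441 and 0.854). No transcript of any gene was called in that fit (0% of 16679), while 2304 had an unadjusted p under 0.05 and DESeq2 called 296.

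The Argonaute genes were scarcely counted. Ago2, whose product is the slicing Argonaute, had 6, 2 and 4 counts in Ctrl and 2, 2 and 3 in Rb2, and Ago1 had 1 count in Ctrl replicate 2 and 0 in the other 5 samples. Both fell below the filter and were not tested. Of the other Argonaute genes, Ago4 had 2 counts in all, while Ago3 had 22, 17 and 22 counts in Ctrl and 5, 14 and 14 in Rb2 (log2 fold change -0.68, edgeR adjusted p = 0.350). On the CPM scale Ago3 was at 2.67, 3.07 and 3.84 in Ctrl and at 0.890, 2.43 and 2.58 in Rb2, and it did not pass the test. Ago3 passed the filter through Ctrl: 3 Ctrl samples but 2 Rb2 samples reached the 1.76 CPM it asks of 3 samples. A low count alone does not show that a gene's RNA was low: Hspa8, a chaperone gene that cells express at high levels, had 3 counts over all 6 samples. Ago3, Ago4 and Hspa8 were picked out after their values were seen.

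The genes around these members were taken from 6 lists with 76 genes, of which 73 matched a row and 58 passed the filter. Of the 58, 6 were called higher with Rb2, none was called lower and 52 did not pass, a share of 10.3% called. Over all genes 1.90% were called higher and 0.805% lower, and 2.98% of known genes were called in either direction. The median log2 fold change of the 58 was 0.24, against -0.02 for all genes tested and 0.04 for known genes, and 29 of the 58 had groups that did not overlap, against 27.2% of all genes. The filter itself bears on these counts: 3 of the 58 genes reached its level in all Rb2 samples but not in all Ctrl samples, and 1 the other way round. Of the 6 called genes, 4 reached that level in all Ctrl samples. Eif2ak2 and Fmr1 did not, so their calls add no support to the share of 10.3%. The pathway genes were longer than known genes as a whole (median 3454.5 against 2594.5 bases), and with the length offset their median was 0.125. The count of pathway genes called higher moved with the samples used. Without Ctrl replicate 2 none of the pathway genes was called, nor without any 1 of the 3 Rb2 replicates. The count was 14 without Ctrl replicate 1 and 10 without Ctrl replicate 3. Under no alternative was a pathway gene called lower. The share of all genes called under each alternative is not given beside these counts, so their moves may not be particular to the pathway genes.

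The gene with the closest tie to TRBP and PACT, Eif2ak2, was among those that rose. It encodes PKR, which halts translation when it binds double-stranded RNA. Eif2ak2 was at 2.91, 1.81 and 3.32 CPM in the controls, against 5.87, 7.97 and 7.91 CPM with Rb2, and every Rb2 value was above every Ctrl value. The log2 fold change of Eif2ak2 was 1.42, with an SE of 0.28 and an edgeR adjusted p of 0.0369. Eif2ak2 passed the filter through Rb2, as 3 Rb2 samples but 2 Ctrl samples reached the 1.76 CPM asked of 3 samples. Its test is to be read with that limit. The gene was called in 11 of 16 alternatives, the length offset among them (1.32, edgeR adjusted p = 0.0388). This number is no separate support, because alternatives that keep the filter share its limit. RefSeq places 2 other genes across part of Eif2ak2. In its list of double-stranded RNA-binding proteins 3 of 6 matched genes were tested. Dhx9, a helicase that binds such RNA, was at 8.13, 5.06 and 7.69 CPM in the controls, against 13.2, 19.2 and 12.1 CPM with Rb2 and did not pass (log2 fold change 1.08, edgeR adjusted p = 0.0576). Dhx9 was picked out after its values were seen.

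Of 7 tested chaperone genes linked to the loading of Argonautes, 2 were called higher and none lower. The log2 fold change was above 0 for 6 of them and below 0 for Hsp90ab1 (-0.25, edgeR adjusted p = 0.123). Hsp90ab1 averaged 2200 CPM in Ctrl and 1850 CPM in Rb2, in groups that did not overlap, and was picked out after its values were seen. Hspa4, a cochaperone of HSP70, was at 21.6, 21.15 and 37.7 CPM in the controls, against 55.2, 65.9 and 62.0 CPM with Rb2 (log2 fold change 1.19, SE 0.22, edgeR adjusted p = 0.0356). Dnaja2, an HSP40 protein, was at 60.1, 60.9 and 80.55 CPM in the controls, against 93.8, 118 and 110 CPM with Rb2 (log2 fold change 0.68, SE 0.145, edgeR adjusted p = 0.0464). Ctrl replicate 3 was the highest control for both genes, still below each Rb2 sample. Both genes also serve protein folding at large. RefSeq places a pseudogene across part of Hspa4, and whether counting used strand is not given in the sources used here.

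Among Argonaute partners and scaffolds 1 of 8 tested genes rose. Fmr1, which encodes the RNA-binding protein FMRP, had 3, 1 and 2 counts in Ctrl and 12, 13 and 21 in Rb2, or 0.298 ± 0.102 and 2.75 ± 0.965 CPM (SD, n = 3). The Ctrl counts of Fmr1 lie at or below the limit that a count of 0 allows, so the size of the difference is poorly fixed. Fmr1 passed the filter through Rb2 alone, with no Ctrl sample at its level. A gene of this kind had to differ, so its test is not support. Of the 6 called genes, 5 had a Ctrl sample at that level and 4 had all Ctrl samples there. Tnrc6a and Tnrc6b, which encode the GW182 scaffolds that Argonautes bind, did not pass (log2 fold change 0.85 and 0.68, edgeR adjusted p = 0.248 and 0.113); they were picked out after their values were seen.

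Of 9 tested genes of small RNA turnover 2 rose, both nucleases with wider roles. Xrn2, a nuclear exoribonuclease of transcription termination, was at 19.8, 22.2 and 21.7 CPM in the controls, against 40.9, 38.1 and 36.8 CPM with Rb2 (log2 fold change 0.865, SE 0.134, edgeR adjusted p = 0.0207). The samples of Xrn2 were tight within each group. Pnpt1, the mitochondrial polynucleotide phosphorylase, was at 4.61, 8.68 and 6.465 CPM in the controls, against 16.55, 12.8 and 13.4 CPM with Rb2 (log2 fold change 1.13, SE 0.25, edgeR adjusted p = 0.0479). Under the length offset Pnpt1 missed the threshold (1.03, edgeR adjusted p = 0.0692), the one of the 6 to do so. Pnpt1 was called in 7 of 16 alternatives, Hspa4 in 10 of 16, Dnaja2 and Xrn2 in 11 of 16 each, and Fmr1 in 9 of 15. The number for Fmr1 carries the limit of the filter given above.

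No gene was called among 13 tested genes of nuclear processing and export or 18 of deadenylation, decapping and decay, with median log2 fold changes of 0.05 and 0.08. Ran, the GTPase that drives export of hairpins with exportin, was the most abundant of the former, with a mean of 1740 CPM (SD 203) for Ctrl against 1701 CPM (SD 30.7) for Rb2 (n = 3 each; log2 fold change -0.03, edgeR adjusted p = 0.878). Pabpc1, the poly(A)-binding protein, had the highest mean of the latter, at 139 ± 68.3 and 102 ± 11.6 CPM (SD, n = 3; log2 fold change -0.46, edgeR adjusted p = 0.480). The spread of Pabpc1 in Ctrl came from replicate 1 at 218 CPM, against 104 and 95.6 CPM in the other 2. Lsm1, a decapping cofactor, had means of 106.0 CPM in Ctrl and 105.7 CPM in Rb2. Lsm1 was above Pabpc1 in replicates 2 and 3 of both groups, level with it in Rb2 replicate 1 and below it in Ctrl replicate 1. Cnot2 and Cnot1 of the deadenylase complex, Lsm14a and Eif4a2 came closer to the threshold (log2 fold change 0.835, 0.716, 0.718 and 0.886, edgeR adjusted p = 0.0516, 0.0668, 0.0555 and 0.0745). They were called in 7, 4, 7 and 6 of 16 alternatives and, with Lsm1, were picked out after their values were seen.

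**Figure D3:**
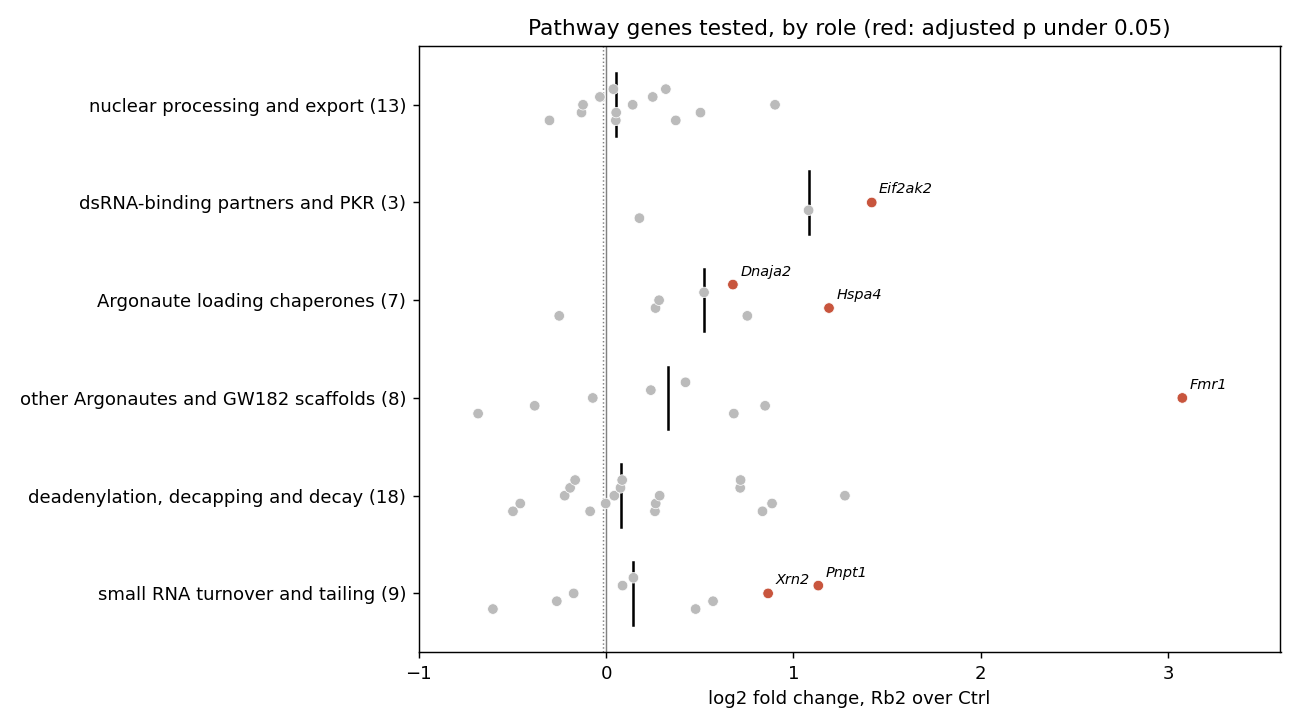
Log2 fold change of Rb2 over Ctrl (horizontal axis) for the 58 pathway genes tested, in rows by role with the number tested in brackets; red points were called by edgeR, black bars are the median of each row, and the dotted line is the median of all genes tested. The 6 called genes, which are named, all lie above 0, and the rows of nuclear processing and of decay hold none. Of the 6, Eif2ak2 and Fmr1 passed the filter through Rb2.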

How the data were processed

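The authors deposited whole-number counts per gene and per transcript with lengths, and CPM tables that equal count over column total (largest difference 4.9e-11), as tested on the files. The submitters' processing notes list HISAT2, DESeq2 and a mouse build, mm10, with no role for any; identifiers are rat, so no coordinates of the files are used. The counter is not given in the sources used here. A further 18 columns of each table could be matched to none of the 6 samples and were left unused.

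Members and lists were chosen with earlier results of these data known. Counts were fitted over all genes or transcripts with edgeR 4.0.16 in R 4.3.3 (TMM, filterByExpr, robust quasi-likelihood F test, Benjamini-Hochberg adjustment, threshold 0.05). SE comes from the fold change and F; 95% intervals use the fit's degrees of freedom. limma 3.58.1 and DESeq2 1.42.0 served as alternatives. The fits were tested on simulated data. The transcript usage test was left out, because Tarbp2 alone had 2 transcripts past the filter and was chosen by this contrast. Named pathway genes are those called or, in a list with none, the one with the highest mean CPM; other pathway genes named were picked out after their values were seen. Of the 76 listed genes 2 matched by an older symbol and 3 not at all; sequences and neighbours are from RefSeq (GRCr8).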

Additional observations from a re-analysis of the deposited data

How the results depend on the processing

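Of the members besides Tarbp2, none was called under any of the 16 alternatives that tested it (DESeq2 gave Dicer1 no adjusted p), and none of their transcripts under any of 10. Tarbp2, Dicer1, Drosha and Prkra kept the direction of their fold change in each; Dgcr8 went to -0.004 without Ctrl replicate 2 and ran from -0.05 (without Rb2 replicate 3) to 0.37 with 1 sample left out (log2). The count of pathway genes that rose, 6 as reported, was 13 with library size only, 12 with any count as the filter, 14 and 13 with limma on deposited CPM plus 1 and plus 0.1, and 10 with DESeq2. It ran from 0 to 14 with 1 sample left out. The share of all genes called higher under each alternative is not given here. These counts therefore do not show a change particular to the pathway genes. With the replicate number as a block, the count of pathway genes that rose was 0. Deviations of same-numbered samples did not correlate (-0.067, -0.061 and -0.007 over 11551 genes). With 3 samples in each group this cannot show whether same-numbered samples were prepared together. Library size alone moved the median of all genes from -0.016 to 0.096 and of the pathway genes to 0.35; limma on CPM plus 1 gave 0.095 for all genes, limma on CPM plus 0.1 gave 0.11 and 0.36, and the length offset 0.125 for the pathway genes. The alternatives for transcript usage were not run, since that test was left out. The change in share of Tarbp2-201, -22.5 percentage points, was -26.6 among transcripts past the filter and -19.5 per kilobase; that of ONT.16238.5, 21.7, was 25.3 and 19.8. Both together changed by -0.739, by 0.315 per kilobase, and from -1.88 to 0.583 with 1 sample left out, all within the spread of the samples. Ago1 and Ago2 were at too few counts to be tested, and Dicer1 and Dgcr8 rest on 95 and 134 counts in all.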
